A study of Mus musculus with 2 samples.

Results

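Inhibitory myeloid receptors are surface proteins that restrain the response of neutrophils, monocytes and macrophages. The 9 genes described here, Cd33, Lilrb4a, Pirb, Cd300a, Cd300lf, Cd200r1, Sirpa, Pilra and Siglece, were chosen by name among the 32285 genes counted, and all 9 were found. Their levels are described by stage of neutrophil maturation, in the few cells richest in macrophage transcripts, and by surgery. Together they held 46306 UMIs, or 0.262% of all UMIs on genes.

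The cells came from femurs and vertebrae of female BALB/c mice that were ovariectomized (OVX) or sham-operated at 10 weeks of age and killed 4 weeks later, with 20 mice pooled per condition. Bone-lining cells, called osteal macrophages (Omacs) in the study, were sorted on CD11b together with F4/80 or CD68 after flushing of the marrow and digestion of the bone. OVX cells carried hashtag antibody 1 and sham cells hashtag antibody 2, and both were run in 1 droplet reaction with a 3′ kit that counts each captured RNA molecule once by its unique molecular identifier (UMI). With 1 pool per condition there were no replicate pools, so no p-value was computed, and every interval below is a 95% interval that covers counting error only.

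The 2349 barcodes held a median of 4387 UMIs, and the hashtags placed 1059 of them in OVX (median 4812 UMIs) and 981 in sham (median 3704 UMIs), where 1037 OVX and 1084 sham cells had been loaded. Levels by cluster use all barcodes, including those given to neither condition. Clustering gave 6 groups. Lists of marker genes placed 2077 cells in 4 neutrophil-like clusters. All 12 neutrophil markers were detected in each of these, but also in both other clusters, so detection alone does not set them apart. As a share of UMIs, the summed markers in the other clusters, of 62 and 210 cells, stood at 10.6% and 1.30% of the neutrophil-like level. Among the 10 leading genes of the immature cluster (384 cells) were the cell cycle genes Hist1h1b, Top2a and Mki67 and the granule genes Ltf, Camp and Ngp. The other leading genes there, Clec12a, Cd74, H2-Ab1 and Plac8, were not on the list of immature markers. Those of the stefin-high cluster (606 cells) included Stfa2 and Stfa2l1, and those of the Ccl4-high cluster (618 cells) included Ccl4, Ccl3 and Jaml. The stefin-low cluster (469 cells) was led by Retnlg. The last 3 are called mature here. A stromal-like cluster (210 cells), with Prg4, Prrx1 and Gng11 among its leading genes, served as the background for RNA found outside its cells of origin.

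In most clusters the transcripts that define macrophages were low. In neutrophil-like cells the 14 macrophage markers summed to 133 UMIs per 1000000 (CPM), against 275746 CPM for the 12 neutrophil markers, though 12 of the 14 had a UMI. Of the genes for the sort markers, Itgam (CD11b) had 1735 CPM in neutrophil-like cells, Cd68 62.4 CPM and Adgre1 (F4/80) 5.59 CPM. In stromal-like cells these had 23.6, 12.8 and 0 CPM. A cluster of 62 cells held 8242 CPM of macrophage markers, with Arg1 at 6614 CPM and Msr1 at 1146 CPM, but 6 of the 14 markers (C1qa, C1qb, C1qc, Cd163, Vsig4 and Timd4) had no UMI there. Its 10 leading genes included 1 macrophage marker, Arg1, and 2 megakaryocyte markers, Pf4 and Ppbp. Of the 4 megakaryocyte markers only 2 were found in 10% of its cells or more, and Itga2b had no UMI. All 6 monocyte markers were found in 10% of its cells or more. They summed to 1754 CPM, against 173 CPM in neutrophil-like cells, and Fn1 alone held 789 and 93.3 CPM of these. In stromal-like cells they summed to 10806 CPM, with no UMI of Ccr2 or Ms4a6c, so the sum is not particular to monocytes. The cluster of 62 cells is therefore called the Arg1 and Pf4 cluster, after 2 of its leading genes.

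Most of these receptors carry in their cytoplasmic tail the immunoreceptor tyrosine-based inhibitory motif (ITIM). Once Src-family kinases phosphorylate its tyrosine, the motif recruits the phosphatases SHP-1 (Ptpn6), SHP-2 (Ptpn11) or SHIP-1 (Inpp5d), which dampen signals from activating receptors. Several members have a close relative with a short tail that signals through the adaptors Tyrobp or Fcer1g, so the family is spoken of as paired receptors. Sirpa recognizes CD47, Pirb recognizes MHC class I, Cd200r1 recognizes CD200, Cd300a and Cd300lf recognize membrane lipids such as phosphatidylserine, and Cd33, Siglece and Pilra bind sialylated ligands.

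The coding sequences were searched for the motifs that give the family its name, because the members differ in them. The search took 1 annotated transcript per gene of the GENCODE annotation of GRCm38 and looked behind the most hydrophobic stretch of 19 residues. An ITIM was taken as isoleucine, leucine, valine or serine, any residue, tyrosine, any 2 residues, then isoleucine, leucine or valine. Of the 9 members, 7 encoded an ITIM, with 14 in all, and 4 of these also encoded the related switch motif (ITSM), taken as threonine, any residue, tyrosine, any 2 residues, then valine or isoleucine. Pirb and Sirpa held 3 ITIMs each, Lilrb4a, Cd300a and Cd300lf held 2, and Pilra and Siglece held 1. Cd200r1 held no ITIM but 1 NPxY motif (asparagine, proline, any residue, tyrosine), the kind that binds Dok adaptors. In Cd33 none of these patterns was found in the 135 residues behind the stretch, which says only that these patterns are not in this transcript.

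Examples of the codons are given 5′ to 3′ on the coding strand, with the motif codons in capitals and 12 bases on either side. They lie in exon 9 of 9 of Lilrb4a (chr10:51496182-51496223, plus strand), exon 7 of 7 of Cd300lf (chr11:115117100-115117141, minus strand), exon 8 of 8 of Sirpa (chr2:129630065-129630106, plus strand), exon 7 of 7 of Siglece (chr7:43651573-43651614 for the ITIM and chr7:43651504-43651545 for the ITSM, minus strand) and exon 7 of 7 of Cd200r1 (chr16:44794227-44794262, plus strand).
Lilrb4a ITIM: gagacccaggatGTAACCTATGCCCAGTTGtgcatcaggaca
Cd300lf ITIM: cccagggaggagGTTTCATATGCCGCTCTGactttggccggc
Sirpa ITIM: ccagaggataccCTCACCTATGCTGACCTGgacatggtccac
Siglece ITIM: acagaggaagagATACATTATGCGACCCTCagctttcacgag
Siglece ITSM: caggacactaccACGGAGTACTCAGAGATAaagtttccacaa
Cd200r1 NPxY: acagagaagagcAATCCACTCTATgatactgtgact

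**Figure D1:**
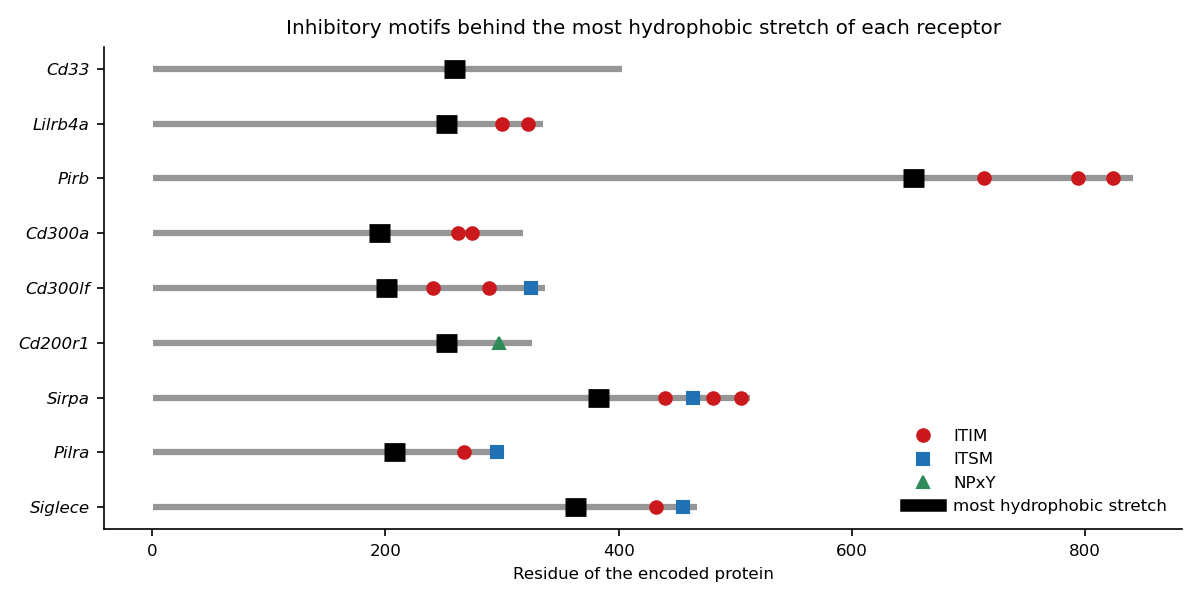
Map of the proteins encoded by the 9 receptor genes, in residues from the start. Grey bars are the whole protein, black blocks the most hydrophobic stretch, and symbols the tyrosines of the motifs behind it; 7 proteins hold at least 1 ITIM, Cd200r1 holds an NPxY and Cd33 holds none of the patterns.

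Of the 9 transcripts, 8 had their highest level in a neutrophil-like cluster. Cd33, a sialic acid-binding lectin, was highest in the Ccl4-high cluster at 1242 CPM and fell in order to 1086 CPM in the stefin-low, 757 CPM in the stefin-high and 365 CPM in the immature cluster, with every neighbouring pair of intervals apart, that is, not overlapping. It stood at 127 CPM in the Arg1 and Pf4 cluster and 14.2 CPM in stromal-like cells. Lilrb4a (gp49B), of the leukocyte immunoglobulin-like receptor family, had the same leading cluster at 2243 CPM, then 1347, 1170.2 and 579 CPM in the stefin-low, stefin-high and immature clusters. Its level of 552 CPM in the Arg1 and Pf4 cluster overlapped that of the immature cluster.

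Cd300lf reached 1855 CPM in the Ccl4-high cluster. Its levels in the stefin-high (1137 CPM) and stefin-low clusters (1127 CPM) did not differ beyond their intervals, and both exceeded the immature cluster at 485 CPM. Cd300a was lower throughout, with 161 CPM in the Ccl4-high, 116 CPM in the stefin-low, 73.8 CPM in the stefin-high and 65.1 CPM in the immature cluster, and the last 2 overlapped. These lipid-binding relatives lie on the same chromosome (Cd300a at chr11:114890041-114904654 and Cd300lf at chr11:115116214-115133992). Both had their highest CPM in the Ccl4-high cluster, as did Cd33, Lilrb4a, Cd200r1, Pilra and Siglece. For Cd200r1, Pilra and Siglece the Ccl4-high interval overlapped that of the next cluster. Ccl4-high cells were shallower, with a median of 2646 UMIs against 4047 in stefin-low, 5455 in stefin-high and 7374 in immature cells. In UMIs, Cd33 had 2433 in 618 Ccl4-high and 3128 in 606 stefin-high cells, and Cd300a 316 and 305. The part of depth in this order was not tested.

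Pirb was spread evenly over the mature clusters. It had 236 CPM in the stefin-high, 229 CPM in the stefin-low and 206 CPM in the Ccl4-high cluster, with neighbouring intervals overlapping, and 119.6 CPM in the immature cluster. Pilra varied least among neutrophil-like clusters, from 99.0 CPM in the immature to 123 CPM in the Ccl4-high cluster, and neighbours in the order overlapped. Cd200r1 ranged from 76.6 CPM in the immature to 171 CPM in the Ccl4-high cluster, with the intervals of the 3 mature clusters and of the Arg1 and Pf4 cluster (129 CPM) overlapping those of their neighbours. Siglece stood at 131 CPM in the Ccl4-high and 123 CPM in the stefin-high cluster, and at 73.2 CPM in the stefin-low and 74.3 CPM in the immature cluster.

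Sirpa was the exception. It was highest in the Arg1 and Pf4 cluster at 344 CPM, apart from the next, the Ccl4-high cluster at 238 CPM, and the immature cluster was the lowest of the neutrophil-like clusters at 147 CPM. In the plot of levels by cluster, Sirpa is the panel in which the Arg1 and Pf4 cluster lies to the right of all others.

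**Figure D2:**
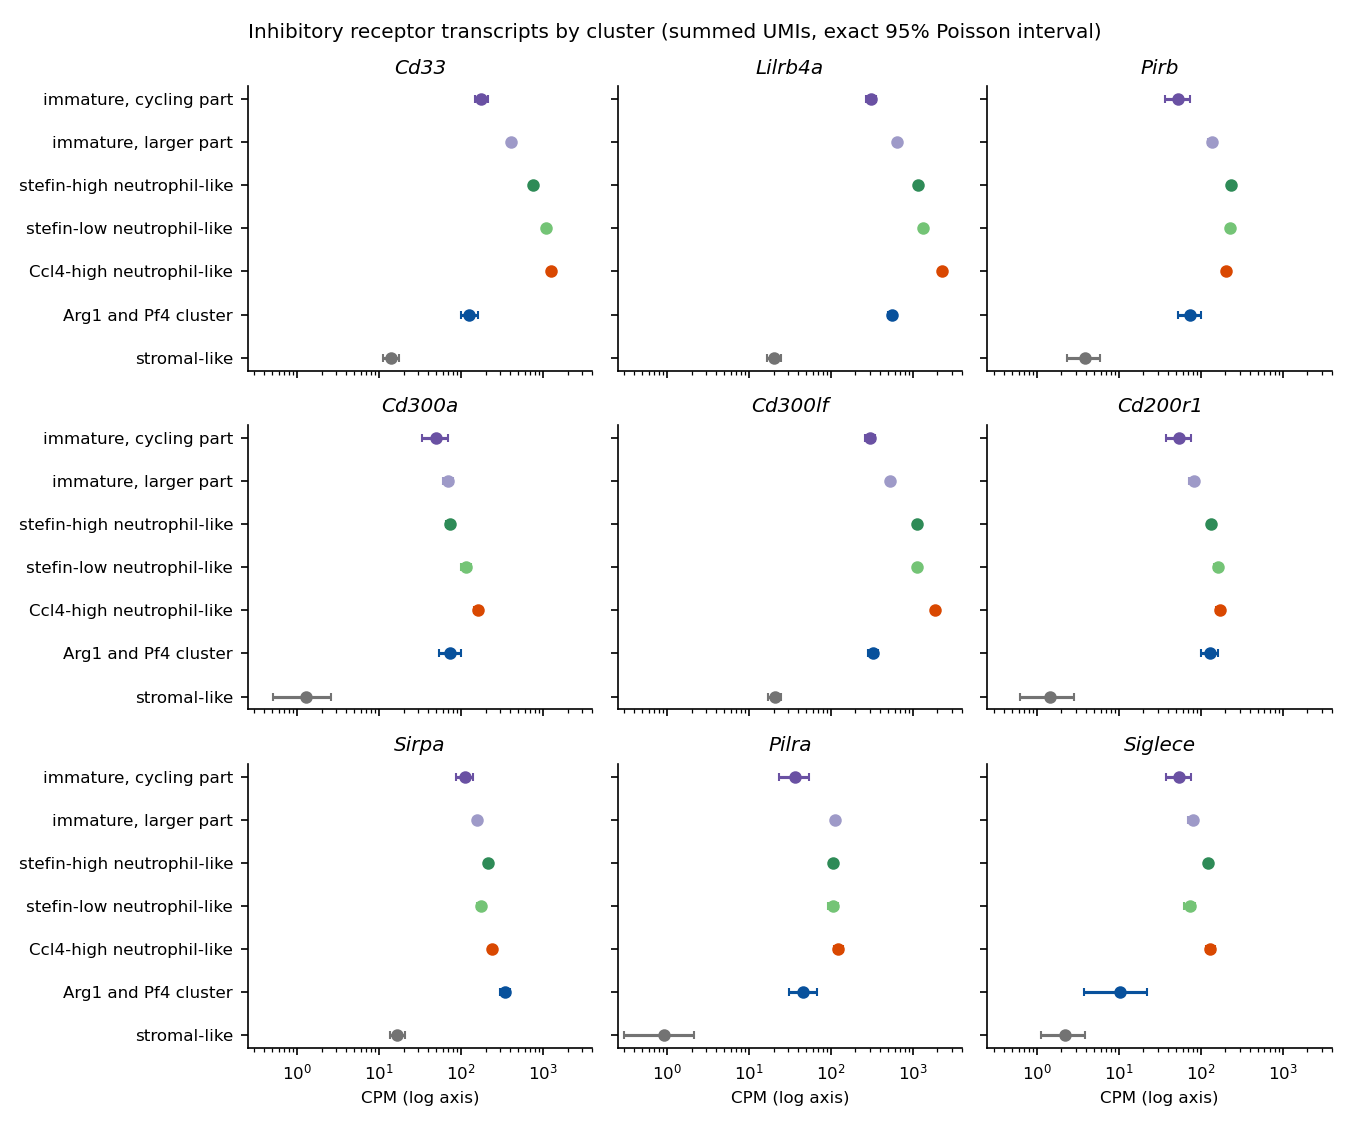
Level of each receptor transcript, in CPM of summed UMIs on a log axis, in the mature clusters, in both larger parts of the immature cluster, in the Arg1 and Pf4 cluster and in the stromal-like cluster. Points are levels and bars exact 95% Poisson intervals; in the stromal-like cluster all 9 lie at or below 20.6 CPM, and only Sirpa peaks in the Arg1 and Pf4 cluster, at 344 CPM.

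All 9 receptors had a lower CPM in immature than in mature neutrophil-like cells. The fall was at least 1.5-fold for 7 of 9, against 21.5% of the 4872 genes with at least 20 CPM in either group, and no member was higher by that much, against 35.2% of genes. The median log2 ratio was -0.92 over the members and 0.12 over all genes. With Leiden clustering, which put 580 cells in the immature cluster, only 3 members (Cd33, Lilrb4a and Cd300lf) were lower by 1.5-fold. The log2 ratios of Pirb, Cd300a, Cd200r1 and Siglece were then -0.35, -0.27, -0.45 and -0.40, and that of Pilra was 0. The cells were clustered on these same transcripts, so these values are a description. Cd300lf went from 1307 CPM in mature to 485 CPM in immature cells, a ratio of 0.371 (95% interval 0.352 to 0.391). Cd33 and Lilrb4a had ratios of 0.382 and 0.393. Pilra, at 111 and 99.0 CPM, had a ratio of 0.891 (0.785 to 1.01), and Sirpa one of 0.702 (0.635 to 0.775).

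Splitting the immature cluster showed the same direction at a finer scale. A part of 43 cells was led by Hist1h1b, Top2a and other cell cycle genes, and a part of 311 cells had Ltf, Camp and Ngp, which encode proteins of neutrophil granules, among its leading genes, together with the antigen presentation genes Cd74, H2-Ab1 and H2-Aa. A remaining part of 30 shallow cells, with a median of 860 UMIs and mostly mitochondrial leading genes, is not described further. From the cycling part through the larger part to mature cells, 8 of 9 receptors increased step by step, an order shown by 29.3% of 5452 genes. Cd33 went from 178 to 411 to 957 CPM and Lilrb4a from 312 to 644 to 1473 CPM, with each step apart. Pirb went from 52.5 to 136 to 227 CPM, and Sirpa from 111 to 157 to 209.6 CPM, also apart at each step. For Cd300a, Cd200r1 and Siglece the intervals of the first step overlapped. Pilra departed from this order, with 36.6 CPM in the cycling part, 114 CPM in the larger part and 111 CPM in mature cells. The cycling part was also the deepest, with a median of 14507 UMIs per cell against 7404 in the larger part and 3506 in mature cells. The part of depth in the order of CPM was not tested.

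Detection per cell was compared at an equal depth of 1000 UMIs drawn from each cell, and 171 cells with fewer UMIs were left out. In mature neutrophil-like cells 75.4% (73.2 to 77.5) had a UMI of Cd300lf, 75.2% of Lilrb4a and 61.7% of Cd33, while Sirpa (20.5%), Pirb (19.5%), Cd200r1 (12.9%), Cd300a (11.2%), Pilra (10.8%) and Siglece (10.3%) were found in fewer. In immature cells the shares were 37.8% for Cd300lf, 41.5% for Lilrb4a and 30.7% for Cd33. In stromal-like cells, whose median before thinning was 19996 UMIs against 3905 in neutrophil-like cells, no receptor exceeded 3.03%, and for Pirb, Cd200r1, Pilra and Siglece 0 of 198 cells had a UMI at this depth, which allows a share of up to 1.52% by the limit of 3 counts used for a count of 0 (the exact 95% interval reaches 1.85%). Without thinning, 89.0% of mature and 22.4% of stromal-like cells had a UMI of Cd33. As a percent of the neutrophil-like CPM, the stromal-like level of 8 receptors ran from 0.850% for Pilra to 2.17% for Siglece, beside 1.30% for the summed neutrophil markers. For Sirpa it was 8.81%. CPM and thinning both scale with depth, so the same number of free UMIs gives lower values in these deeper cells than in shallower ones. In UMIs, Cd33 had 78 in 210 stromal-like cells, 74 in the 62 cells of the Arg1 and Pf4 cluster and 9062 in 2077 neutrophil-like cells. A background in UMIs per cell was not estimated.

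Several receptors were found in the same cell. Ccl4-high cells held a mean of 3.31 of the 9 after thinning, stefin-low cells 2.88, stefin-high cells 2.72, immature cells 1.74 and the Arg1 and Pf4 cluster 1.31. At least 3 receptors were detected in 77.4% (73.7 to 80.8) of Ccl4-high, 59.6% (54.9 to 64.2) of stefin-low, 56.2% (52.0 to 60.4) of stefin-high and 26.7% (22.2 to 31.7) of immature cells, and in 14.8% (6.98 to 26.2) of the Arg1 and Pf4 cluster. The Ccl4-high interval was apart from the others, and those of the stefin-low and stefin-high cells overlapped. The cycling part of the immature cluster had at least 3 in 7.14% (up to 19.5) of 42 cells and the larger part in 30.4% (25.3 to 36.0) of 299 cells. In stromal-like cells 91.9% had none.

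**Figure D3:**
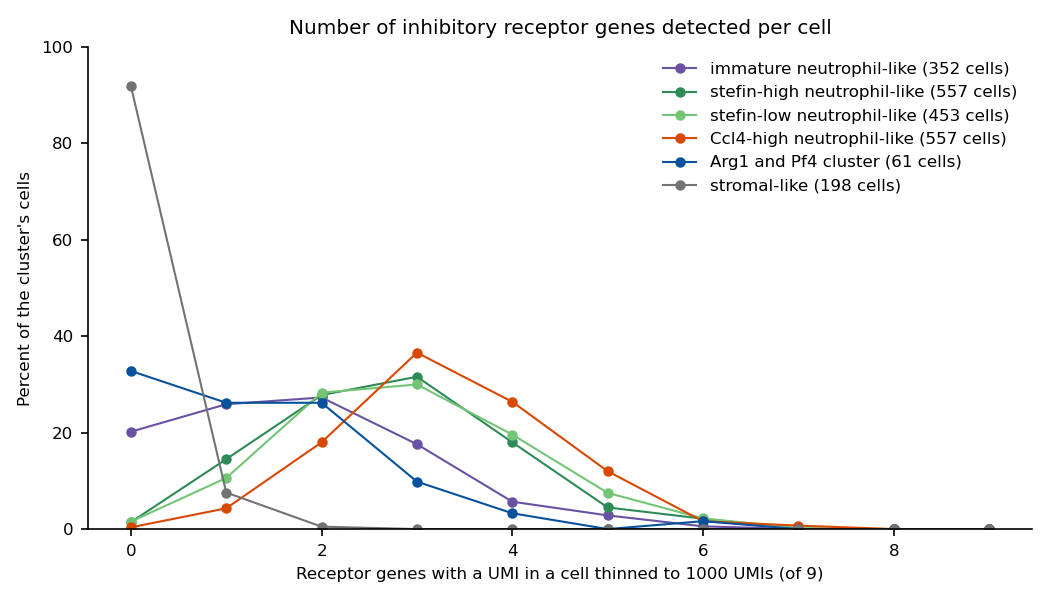
Share of each cluster's cells, in percent, by the number of the 9 receptor genes with a UMI after thinning to 1000 UMIs. The curves of mature cells peak at 3 receptors, that of immature cells at 2, and 91.9% of stromal-like cells have 0.

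The Arg1 and Pf4 cluster held less of most receptors than neutrophil-like cells. The level was lower by at least 1.5-fold for 6 of 9 members, against 16.3% of 5706 genes, and higher by that much for 1, Sirpa, against 52.6% of genes. The median log2 ratio was -1.21 over the members and 0.67 over all genes. Sirpa was 1.80-fold higher (1.55 to 2.08) and was found in 52 of the 62 cells. Sirpa did not reach 1.5-fold under 5 of 8 alternatives. Its log2 ratio, 0.85 here, was 0.09 with Leiden clustering, whose corresponding cluster held 140 cells, and 0.40 with the receptor genes left out of the clustering (119 cells). Cd200r1 had 129 and 128 CPM, a ratio of 1.00 (0.786 to 1.27), which on the log2 scale was 0.01 here and -0.91 with Leiden clustering. Cd300a had 73.9 and 93.3 CPM, with a ratio of 0.792 (0.570 to 1.07). Lilrb4a, Pilra, Pirb and Cd300lf had ratios of 0.458, 0.432, 0.379 and 0.311. The log2 ratio of Pilra, -1.21 here, was -0.38 with Leiden clustering and -0.58 with the filter on barcodes, both short of 1.5-fold.

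Siglece and Cd33 were lowest there relative to neutrophil-like cells. Siglece had 6 UMIs in the cluster, 10.3 CPM, or 10.2% of its neutrophil-like level, and Cd33 had 16.3%. The summed neutrophil markers in the same cluster stood at 10.6% of their level in neutrophil-like cells. Of the 74 Cd33 UMIs, 43.2% came from 3 cells, whereas for Sirpa the 3 highest cells held 14.5%.

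Over all assigned cells, 8 of 9 receptors were higher in OVX, with a median log2 ratio of 0.26 against -0.20 over all genes. Only Siglece passed 1.5-fold, and 4.76% of 5255 genes did so in that direction. No member was lower by 1.5-fold, against 19.8% of genes. With barcodes assigned by share of hashtag UMIs instead, 4 members (Lilrb4a, Pirb, Cd300lf and Siglece) passed 1.5-fold and all 9 were higher. The share of all genes passing under that assignment is not given, so this count has no background beside it. With equal weight per cell 5 of 9 were higher, and Cd33, Lilrb4a and Cd200r1 turned to log2 ratios of -0.18, -0.03 and -0.16. In mature cells alone 3 of 9 (Pirb, Sirpa and Siglece) were higher, and without the stromal-like cluster 7 of 9. Shares of all genes with a ratio above 1 are not given for any of these counts. The stefin-high cluster held 43.5% of OVX and 11.4% of sham cells, the stefin-low cluster 9.35% and 31.7%, the immature cluster 12.2% and 19.5%, and the stromal-like cluster 3.59% and 5.50%. These shares follow the sort and a clustering made on the same transcripts, and are given to show what an equal mix removes. Most stromal-like cells had no condition, with 38 in OVX and 54 in sham of 210. The 309 barcodes without a condition had a median of 72.0 hashtag 1 UMIs, against 69.0 in sham and 2465 in OVX. Their loss may thus not be equal between the conditions, and the shares above cover assigned cells only. Of the 2077 neutrophil-like cells 1005 were in OVX and 886 in sham.

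Giving both conditions the same cluster mix moved the median log2 ratio of the members to -0.01, beside -0.08 over all genes. Siglece again was the 1 member higher by at least 1.5-fold, against 4.30% of 5090 genes, and none was lower by that much, against 2.89%. Pirb went from a ratio of 1.38 over all cells to 1.04, Cd300lf from 1.29 to 0.99, Lilrb4a from 1.22 to 1.03 and Sirpa from 1.20 to 1.05. Cd300a had the lowest ratio, 0.755, with 68.5 CPM for OVX beside 90.7 CPM for sham.

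Siglece, which encodes a lectin that binds sialic acid (chr7:43651070-43660161), was the receptor with the largest difference between the pools. Over all assigned cells its level was 102 CPM in OVX beside 45.3 CPM in sham, a ratio of 2.25 (1.96 to 2.58), and 1.35% of genes had a ratio as high or higher. At the same cluster mix it had 90.1 and 51.3 CPM, a ratio of 1.75, which 2.34% of genes reached. In the Ccl4-high cluster the OVX level was 172 CPM and the sham level 59.9 CPM, a ratio of 2.88 (2.07 to 4.07). The ratio was 1.69 (1.20 to 2.45) in the stefin-high, 1.48 (1.12 to 1.95) in the immature and 1.26 (0.862 to 1.82) in the stefin-low cluster. Intervals of OVX and sham thus lay apart in 3 clusters and overlapped in the stefin-low cluster. After thinning, 14.2% (11.9 to 16.8) of mature OVX and 5.29% (3.67 to 7.35) of mature sham cells had a Siglece UMI. These mature shares mix clusters unequally. The stefin-high cluster, with more Siglece than the stefin-low cluster (123 and 73.2 CPM), held a larger share of the OVX cells. In immature cells the Siglece shares of 8.33% and 9.60% overlapped. Cd33, on the same chromosome (chr7:43524216-43544428), did not share this pattern. Over mature cells its OVX level was 872 CPM and its sham level 1097 CPM, but 461 of the 876 mature OVX cells and 112 of the 695 mature sham cells lay in the stefin-high cluster, where Cd33 is lowest among the mature clusters. Within clusters its ratio was 0.854 (0.768 to 0.948) in the stefin-low and 0.869 in the Ccl4-high cluster (intervals apart in both), and 1.16 (1.03 to 1.31) in the stefin-high cluster, where the intervals of the levels overlapped.

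Other receptors moved in different directions in different clusters. In the immature cluster 1 of 9 members (Siglece) was higher and 2 (Cd33 and Lilrb4a) were lower in OVX with intervals apart, beside 2.57% and 9.11% of all genes with at least 10 UMIs in either condition. In the stefin-high cluster 3 (Lilrb4a, Cd300lf and Siglece) were higher and 1 (Cd300a) lower, beside 5.52% and 5.27%. In the stefin-low cluster none was higher and 3 (Cd33, Lilrb4a and Cd300lf) were lower, beside 3.39% and 3.12%. In the Ccl4-high cluster 1 (Siglece) was higher and the same 3 were lower, beside 6.58% and 4.97%.

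Lilrb4a had an OVX level of 1208 CPM and a sham level of 874 CPM in the stefin-high cluster, but 1216 and 1418 CPM in the stefin-low and 494 and 619.8 CPM in the immature cluster. Cd300lf had 909.8 and 1198 CPM in the stefin-low cluster and 1761 and 1979.9 CPM in the Ccl4-high cluster, with OVX lower in both, and 1150.0 and 999 CPM in the stefin-high cluster, with OVX higher. Cd300a went the other way in the stefin-high cluster, with 66.2 CPM for OVX and 126 CPM for sham. The sham cells of the stefin-high cluster were shallower, with a median of 2074 UMIs against 6108 in OVX, and 28 of the 112 had under 1000 UMIs. At equal depth the shares of cells with a UMI overlapped there for Lilrb4a (66.6% of OVX and 59.5% of sham cells), Cd300lf (72.0% and 71.4%), Cd300a (5.64% and 9.52%) and Siglece (14.4% and 9.52%). For Sirpa, Cd200r1, Pirb and Pilra, the OVX and sham intervals of the levels overlapped in all 4 neutrophil-like clusters, and the ratio of Sirpa stayed between 0.949 and 1.13. The interval of the ratio is a less strict rule. For Pilra it lay below 1 in the stefin-low (0.669, 0.458 to 0.954) and immature clusters (0.789, 0.619 to 0.999). It held 1 in the stefin-high (0.845, 0.644 to 1.13) and Ccl4-high clusters (1.22, 0.924 to 1.62).

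**Figure D4:**
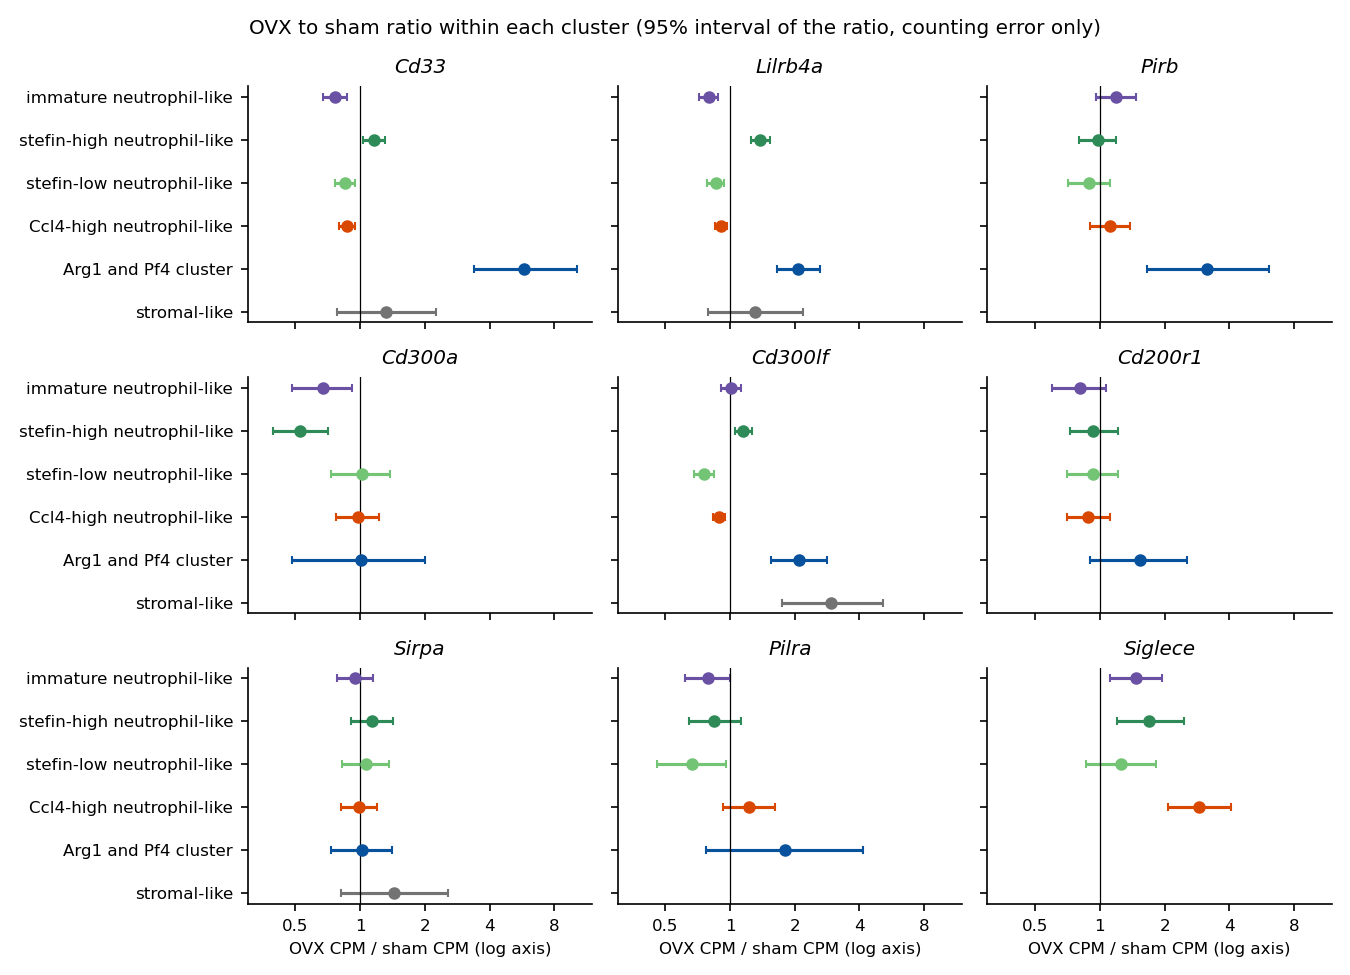
Ratio of OVX CPM to sham CPM for each receptor within each cluster, on a log axis, with the 95% interval of the ratio from counting error and a line at a ratio of 1. Clusters with fewer than 10 UMIs of the gene in both conditions are left out; Siglece lies to the right of the line in all 4 neutrophil-like clusters, and Cd33 reaches 5.76 in the Arg1 and Pf4 cluster (16 OVX and 41 sham cells), where its shares of cells at equal depth overlapped.

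In the Arg1 and Pf4 cluster, with 16 OVX and 41 sham cells, 4 of 8 members with enough UMIs were higher in OVX and none lower, beside 3.48% and 2.84% of genes. Cd33 had 299.7 CPM (51 UMIs in 9 cells) in the OVX and 52.0 CPM (20 UMIs in 8 cells) in the sham cells, Pirb 147 and 46.8 CPM, Cd300lf 517 and 247 CPM, and Lilrb4a 876 and 421 CPM. At equal depth the OVX and sham shares of cells with a UMI overlapped for all 4. They were 18.8% and 4.88% for Cd33, 6.25% and 4.88% for Pirb, 37.5% and 14.6% for Cd300lf, and 56.2% and 22.0% for Lilrb4a. Neutrophil transcripts moved with the levels of these 4 members. The 12 neutrophil markers, all detected, summed to 58674 CPM in the OVX and 17964 CPM in the sham cells of the cluster, or 21.3% and 6.53% of the neutrophil-like level, and Cd33 stood at 39.3% and 6.53% of its own. Their part in the result was not tested. Sirpa, at 341 and 335 CPM, and Cd300a, at 76.4 and 75.4 CPM, had overlapping intervals. So did Cd200r1, at 159 and 104 CPM (ratio 1.53, 0.900 to 2.55), and Pilra, at 70.5 and 39.0 CPM (1.81, 0.773 to 4.14).

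**Figure D5:**
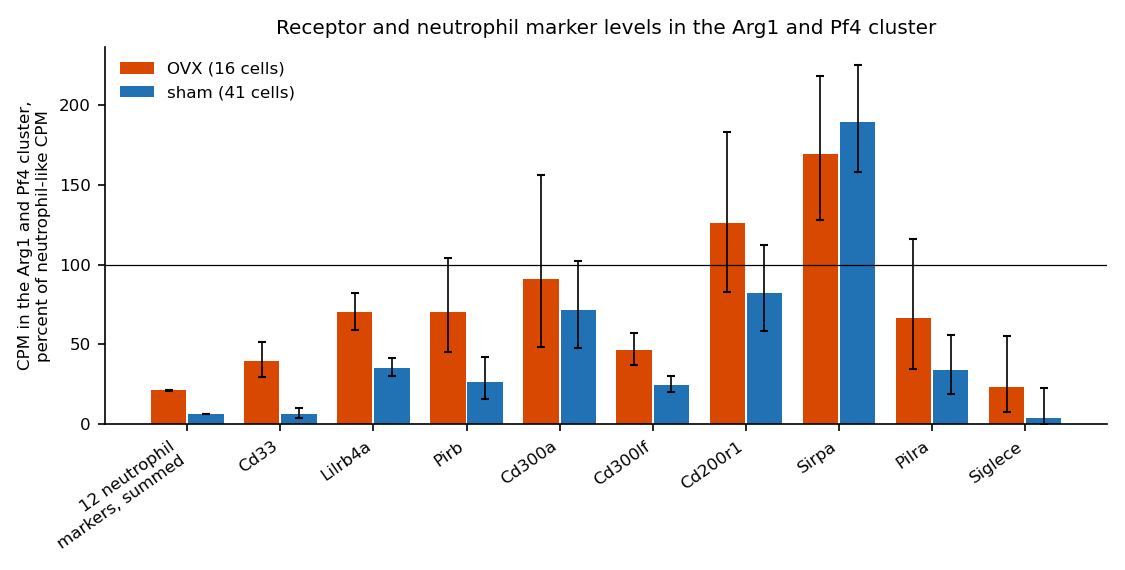
CPM in the Arg1 and Pf4 cluster as a percent of CPM in neutrophil-like cells of the same condition, for the summed neutrophil markers and each receptor, with 95% Poisson intervals of the cluster's counts. The neutrophil markers are at 21.3% in OVX and 6.53% in sham, and Sirpa is above 100% in both.

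Activating partners mostly had a lower CPM in immature cells as well. Of 23 listed partners and adaptors, 20 were found and 16 had at least 20 CPM in either group, and 13 of these were lower and 1 higher by 1.5-fold in immature than in mature cells, beside 21.5% and 35.2% of all genes, with a median log2 ratio of -1.20. Pira2, the activating counterpart of Pirb, had 372 CPM in immature and 716 CPM in mature cells, close to the ratio of Pirb (0.519 and 0.527). The adaptor Tyrobp had 1691 and 2605 CPM, the receptor Clec5a 282 and 451 CPM, and the adaptor Fcer1g 1549 and 1696 CPM, a ratio of 0.913. By surgery at the same cluster mix, 3 of 14 partners were higher and 1 lower, beside 4.30% and 2.89% of all genes.

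Of 14 phosphatases and kinases, 10 had enough counts, and 2 were higher and none lower in immature cells, beside 35.2% and 21.5% of all genes, with a median log2 ratio of 0.08. Ptpn6 (SHP-1) had 209.7 CPM in immature and 131 CPM in mature cells. Lyn, a kinase that phosphorylates ITIMs, had 194 and 278 CPM, Inpp5d (SHIP-1) 85.5 and 119.5 CPM, and the kinase Fgr 131 and 172 CPM. By surgery at the same cluster mix none of the 10 passed 1.5-fold, beside 4.30% of genes higher and 2.89% lower.

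Of 12 genes listed as ligands, 7 reached 20 CPM in either condition. Cd47, the ligand of Sirpa, varied little, with 737 CPM in immature and 756 CPM in mature cells and 616 and 573 CPM in the OVX and sham pools. H2-D1, an MHC class I gene, had 1271 CPM for OVX beside 816 CPM for sham (1204 and 837 CPM at the same mix). Thbs1, for which no receptor among the members is given here, had 581 and 1897 CPM (694 and 1762 CPM at the same mix). Fn1 had 1847 and 2108 CPM, a direction that turned at the same mix (2249 and 1732 CPM).

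Of 24 genes listed as other inhibitory receptors, 23 were found and 10 reached 20 CPM. The search for inhibitory motifs did not cover these genes. In immature cells 4 of the 10 were lower and 2 higher than in mature cells, beside 21.5% and 35.2% of all genes. Cd84 had 74.9 and 359 CPM and Fcgr2b, the inhibitory IgG receptor, 85.5 and 249.5 CPM. Vsir had 213 and 300.3 CPM, and Cd37 171 and 165 CPM. Fcgr2b was also higher in OVX, with 208 against 127 CPM, and at the same mix 185 and 135 CPM. Of the 7 other sialic acid-binding lectins none reached 20 CPM in any of the comparisons, and Siglec1, Siglecf and Siglecg had no UMI in the Arg1 and Pf4 cluster.

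The genes most like each receptor were found by the correlation of log2(CPM + 10) over the 12 groups of cluster by condition, which come from 1 library and share its depth and clustering. Cd33 was most like Cxcr2 (r = 0.994) and Mmp9, Lilrb4a like Lilr4b (r = 0.995) and Rhog, Pirb like Pira2 (r = 0.99) and Sema4a, Cd300a like Pik3cg and Lcp2, and Cd300lf like Morrbid and F630028O10Rik. Cd200r1 was most like Emilin2 and Fcgr3, Sirpa like Lfng and Cd53 (r = 0.977 and 0.976), Pilra like Pygl and Grk2, and Siglece like Tbc1d2 and Hp (r = 0.981 and 0.977). Among the receptors themselves the lowest correlation, 0.547, was between Sirpa and Siglece. Exact words of 93 bases were looked for in the last 500 bases of each transcript, and 8 receptors shared none with another gene, while Lilrb4a shared all with Gm49339, an overlapping annotation that was not among the counted genes.

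Since 8 members increased together over maturation, promoters of the 9 members were searched on both strands for the PU.1 word GAGGAAGT and the C/EBP word TTGCNNAA, which do not overlap each other in sequence. RefSeq promoters of GRCm38.p6, from 250 bases before to 50 after the start, matched 6 of the 9 by symbol. Lilrb4a, Cd200r1 and Sirpa, which all increased, were not matched. The PU.1 word was in 2 of 6, against 3.202% of 32851 promoters, and the C/EBP word in 2 of 6, against 10.797%. Pilra, which holds 1 of the C/EBP words, is the member that did not increase step by step. The matches are shown with the word in capitals, 5′ to 3′ on the gene's strand. They lie at chr11:115133974-115134003 (Cd300lf, minus strand), chr7:3720484-3720513 (Pirb, minus strand), chr11:114889816-114889845 (Cd300a, plus strand) and chr5:137836295-137836324 (Pilra, minus strand, the word being on the opposite strand).
Cd300lf PU.1 word: agtggctaaagGAGGAAGTgccgagtgaga
Pirb PU.1 word: gtcacaccattGAGGAAGTcagagcatggt
Cd300a C/EBP word: tgtctgggtccTTGCTCAAgttcaatgggg
Pilra C/EBP word: cagggcggatcTTCTGCAAcatgggaaaaa
A match of letters is a description and says nothing of binding.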

How the data were processed

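The data are 1 gene expression library of hashtagged Omacs. The authors aligned the reads with Cell Ranger (6.0.1 in the submitters' processing notes, 6.0.0 in the file header) to mm10 and deposited UMI counts, not normalized, for the barcodes called as cells. The same matrix holds the hashtag counts.

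Conditions came from the hashtag counts by HTODemux at a positive quantile of 0.99, in Seurat 5.3.0 under R 4.3.3. 78 barcodes above both cutoffs and 231 below both stayed out of OVX and sham comparisons. These 309 barcodes had a median of 72.0 UMIs of hashtag 1 and 1050 of hashtag 2. The medians were 2465 and 301 in OVX and 69.0 and 2817 in sham. Whether more of them came from sham mice was not tested. No doublet caller was run. Cells were clustered with scanpy 1.11.5 and igraph 0.11.9 (10000 counts per cell, log scale, 2000 variable genes, 30 components, 15 neighbors, Louvain resolution 0.3, the lowest giving 6 clusters of at least 10 cells).

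Leading genes have the highest ratio of CPM to all other cells, among genes with at least 100 CPM. Levels are summed UMIs per 1000000. Intervals are exact (Poisson, or Clopper-Pearson for shares). The 1.5-fold counts cover genes with at least 20 CPM in either group. The same cluster mix weights each condition's cluster CPM by the clusters' UMI shares over all assigned cells. Levels of different genes are per UMI at the 3′ end and not divided by length.

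The members, lists and marker genes were chosen with earlier results of these data known. Named genes are the 9 members, the 2 genes most like each member, and the 4 most abundant genes of each list. From the marker lists and the leading genes, further genes are named to describe clusters. Of the listed genes, Pira6, Pira11, Pira12, Cd99 and Lilrb4b were not found by symbol. A symbol that was not found does not mean that the gene was not counted under another symbol. Lilr4b, the gene most like Lilrb4a, was counted with 9782 UMIs. The immature cluster was meant to be split in 2, but that set apart only 30 shallow barcodes, so 3 parts were used, a choice made after seeing the data. The calculations were tested on simulated data. Alternatives are given in the closing section.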

Additional observations from a re-analysis of the deposited data

Results flagged for a closer look

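With 1 pool per condition, the differences between clusters below were not tested. They were singled out because the OVX and sham intervals lay apart in opposite directions in different clusters.

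The ratio of OVX to sham for Cd33 was 0.764 in the immature, 0.854 in the stefin-low and 0.869 in the Ccl4-high cluster, and 5.76 in the Arg1 and Pf4 cluster. For Lilrb4a it was 0.798 in the immature, 0.858 in the stefin-low and 0.910 in the Ccl4-high cluster, but 1.38 in the stefin-high and 2.08 in the Arg1 and Pf4 cluster. For Cd300lf it was 0.759 in the stefin-low and 0.890 in the Ccl4-high cluster, but 1.15 in the stefin-high, 2.09 in the Arg1 and Pf4 and 2.95 in the stromal-like cluster. The Arg1 and Pf4 cluster held 16 OVX and 41 sham cells, and its shares of cells with a UMI at equal depth overlapped for each of these genes. Over all barcodes of the stromal-like cluster 28 of the 113 Cd300lf UMIs lay in 1 cell, and the summed neutrophil markers there were also higher in OVX (6341 CPM) than in sham (2751 CPM). Their part in the ratio was not tested.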

How the results depend on the processing

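The median log2 ratio of OVX to sham over the members was 0.26 as reported, 0.56 with the hashtag share rule (956 OVX and 1166 sham cells), 0.02 with equal weight per cell, 0.12 without the stromal-like cluster and, in an alternative added after seeing the data, -0.14 in the 3 mature clusters alone. The count of members higher by 1.5-fold was 4 with the hashtag share rule and 1 under the other alternatives, with no share over all genes given beside them. At the same cluster mix the median was -0.09 with equal weight per cell and 0.09 with 1000 variable genes. The immature to mature median, -0.92 as reported, was -0.40 with Leiden clustering and -0.72 with the filter on barcodes, and the count of members lower by 1.5-fold, 7 as reported, ran from 3 (Leiden) to 7. The median share of neutrophil-like cells with a UMI, 18.5% as reported, was 9.15% when thinned to 500 UMIs and 51.5% without thinning. No value past 1.5-fold changed sign. Without an equal mix the log2 ratio of Siglece stayed between 0.97 (the 3 mature clusters alone) and 1.40 (hashtag share rule). At the same mix it stayed between 0.67 and 1.01. The cluster assignments shared an adjusted Rand index of 0.377 to 0.797 with those reported. The log2 ratio of Sirpa in the Arg1 and Pf4 cluster ranged from 0.09 (Leiden clustering) to 0.99 (without its 3 deepest cells, added after seeing the data). The cause of these differences was not tested. With 1 pool of mice per condition, variation between mice cannot be told apart from the effect of surgery. No paired analysis was possible because the labels give no replicates.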
